A study of Caenorhabditis elegans with 12 samples.

Results

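The carboxylesterase (cest) genes of Caenorhabditis elegans were described here in wild-type worms kept with or without lithium chloride (LiCl). Members were all genes whose probe carried a symbol beginning with cest-, once old names had been replaced, by gene identifier, with those of WBcel235. This gave 31 genes of the 8187 named genes on the array, and of 34 cest genes listed in WBcel235, an assembly used here only for names, gene order and gene type; cest-13, cest-16 and cest-24 were not analysed here. The 31 genes carried 36 probes. A single probe stood for each gene, the one with values on most arrays and, among equals, the one with the lowest number, and each of the 31 had a value on all 12 arrays.

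The 6 LiCl samples were N2 hermaphrodites grown from the egg at 20 °C and then held for 48 h at 25 °C on nematode growth medium (NGM) with 10 mM LiCl. The 6 control samples were N2 hermaphrodites raised the same way and held for 48 h at 25 °C on NGM without LiCl. Each sample was a pellet of 50 worms, given as a biological replicate, whose amplified RNA was labelled with Cy5 and hybridised to a separate 2-colour array against Cy3-labelled RNA of mixed-stage N2 worms. The worms' age or stage at harvest is not given in the labels.

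Carboxylesterases are serine hydrolases of the alpha/beta-hydrolase fold that split ester bonds, and they share this fold with acetylcholinesterase and the neuroligins. Mammalian members are known for processing drugs, toxins and lipid esters in liver and gut. In C. elegans several members have been found to work as acyl transferases that join building blocks into modular ascarosides, the worm's pheromones, and into related glucosides, a process tied to lysosome-related organelles of the intestine. CEST-3, CEST-8 and CEST-9.2 attach headgroups to ascarosides, and CEST-1.1 takes part in joining an ascaroside to a uric acid glucoside. For most other members no substrate is named here.

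Values are processed log ratios as the authors deposited them, and the direction, worm sample over reference, is likely from the dyes rather than stated. If the ratio runs the other way, every level and difference below changes sign and every count of higher and lower genes is exchanged. Log base and scale are not stated either, so differences are given in units of the deposited log ratio, LiCl minus control, and not as folds. Array medians lay between 0.018 and 0.044, and each array lacked between 16 and 150 of the 22370 probes. The 95th percentile of all probes was between 1.59 and 1.83 on the LiCl arrays and between 1.46 and 1.56 on the control arrays. With each array divided by its own SD, 5 cest genes were higher and none lower by the test used below. In whole worms, fewer cells of a type and less RNA per cell cannot be told apart.

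The comparison asks which carboxylesterase transcripts differed in level after LiCl. Of the 31 genes 4 were higher in LiCl worms and none was lower (limma, adjusted p under 0.05 over all 22370 probes). The higher genes were cest-15, cest-1.1, cest-2.2 and cest-25, with differences between 0.74 and 2.22. Among all probes 4.50% were higher and 3.50% lower, whereas 12.9% of the cest genes were higher. With the ratio turned, 12.9% of the cest genes would be lower, beside 4.50% of all probes lower and 3.50% higher. Among all named genes, with 1 probe each, 5.34% were higher and 2.99% lower. At an unadjusted p under 0.05, 8 members were higher and 1, cest-29, was lower, beside 12.1% and 10.7% of all probes. At an adjusted p under 0.10, 5 members were higher and 1 lower, beside 6.95% and 5.73% of all probes. The shares of members and of all probes were not tested against each other. All of these genes had been seen in an earlier analysis of the same arrays, so the counts are no independent evidence.

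**Figure D1:**
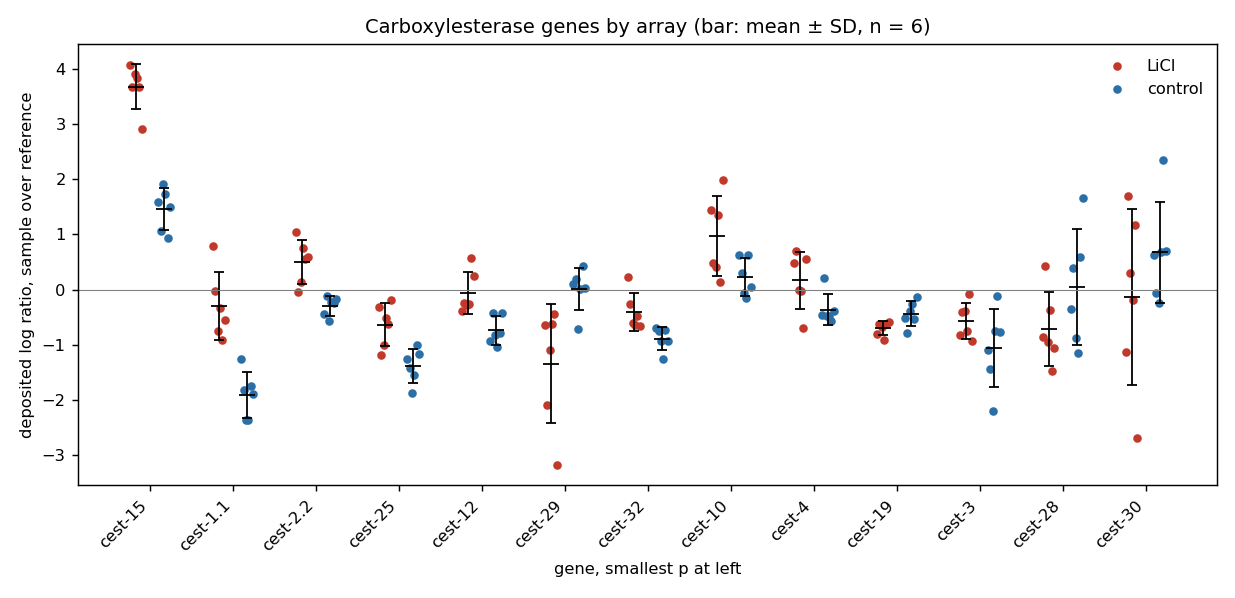
Deposited log ratio (vertical axis, worm sample over mixed-stage reference) of 13 carboxylesterase genes on each array, LiCl in red and control in blue; horizontal marks and bars give mean ± SD of 6 arrays. The LiCl arrays of cest-15 sit between 2.90 and 4.07, all above the control arrays. cest-29 spreads widely on the LiCl arrays, and cest-28 and cest-30 do so in both groups.

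The gene with the largest difference, cest-15 (W02B12.4, chromosome II), is annotated in WBcel235 as a pseudogene, that is, a gene copy without an intact coding sequence in the annotation. Its log ratio on the LiCl arrays had a lowest value of 2.90, a median of 3.75 and a highest of 4.07, against 0.94, 1.54 and 1.90 on the control arrays. The 2 groups did not overlap, and all 12 arrays lay above 0, the side of higher signal than the reference if the ratio is worm sample over reference. The difference was 2.22 ± 0.23 (SE, n = 6 arrays each; limma adjusted p = 0.000155). With each of the 12 arrays left out in turn it ran from 2.12 to 2.38, and the adjusted p stayed at or under 0.000676. The size of the difference depended more on the scaling, being 1.76 with quantile normalization (adjusted p = 0.000741). The probes' sequences were not used here, so signal from a related transcript on this probe was not tested.

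The other annotated pseudogene, cest-29 (F07C4.12, chromosome V), had the most negative difference of the family without passing the test. Its LiCl arrays had a lowest value of -3.18, a median of -0.87 and a highest of -0.45, against -0.71, 0.065 and 0.43 on the control arrays. Only 3 of 6 LiCl arrays lay below every control array, because control replicate 3, the lowest control array, reached into the LiCl range. The difference was -1.35 ± 0.43 (SE, n = 6 each; adjusted p = 0.0742), and its 95% interval ran from -2.28 to -0.43. The SD was 1.08 on the LiCl arrays, where replicates 2 and 6 lay lowest, against 0.385 on the control arrays. Without LiCl replicate 6 the difference was -0.99 (adjusted p = 0.0761), and on the 8 arrays of higher weight it was -0.65 (adjusted p = 0.213). That set of 8 lacks LiCl replicates 1, 2 and 6 and control replicate 5. Its LiCl group is therefore smaller than its control group, which by itself can raise the adjusted p.

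cest-1.1 (T02B5.1, chromosome V), the gene whose enzyme is linked to ascaroside-bearing glucosides, showed the next largest increase. The LiCl arrays had a lowest value of -0.91, a median of -0.44 and a highest of 0.79, against -2.36, -1.85 and -1.26 on the control arrays. The groups did not overlap, and while all control arrays lay below 0, LiCl replicate 1 lay above it. The difference was 1.61 ± 0.29 (SE, n = 6 each; adjusted p = 0.0052). LiCl replicate 1 was the highest LiCl array, and without it the difference was 1.39 (adjusted p = 0.00501). With 1 array left out the adjusted p reached 0.0148. On the 8 arrays of higher weight the difference was 1.27 (adjusted p = 0.0497), just inside the threshold.

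cest-2.2 (ZC376.2, chromosome V) had LiCl values with a lowest of -0.047, a median of 0.58 and a highest of 1.05, against -0.57, -0.24 and -0.11 on the control arrays. All 6 LiCl arrays lay above all 6 control arrays, though LiCl replicate 2 only narrowly. The difference was 0.80 ± 0.19 (SE, n = 6 each; adjusted p = 0.0228). It fell short of the threshold without control replicate 3 (0.75, adjusted p = 0.0536), with the replicate number as a block (adjusted p = 0.0576) and on the 8 arrays of higher weight in limma's estimate (0.79, adjusted p = 0.0748).

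cest-25 (Y71H2AM.13, chromosome III) lay below 0 on all 12 arrays. The LiCl arrays had a lowest value of -1.18, a median of -0.57 and a highest of -0.18, against -1.88, -1.33 and -1.01 on the control arrays. The groups overlapped slightly, since only LiCl replicate 2 reached below the highest control array. The difference was 0.74 ± 0.21 (SE, n = 6 each; adjusted p = 0.0479), just inside the threshold, and it fell short of it when any of 9 of the 12 arrays was left out (adjusted p up to 0.0998). Without control replicate 3 only cest-15 and cest-1.1 passed, a count of 2 in place of 4.

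The groups did not overlap for 5 of the 31 members (16.1%), all of them higher in LiCl, beside 6.61% of all probes in either direction, 3.60% with LiCl above and 3.00% with LiCl below. These were cest-15, cest-1.1, cest-2.2, cest-12 and cest-32, of which cest-12 and cest-32 did not pass the test. cest-12 (Y75B8A.3, chromosome III) had LiCl values with a lowest of -0.39, a median of -0.25 and a highest of 0.58, against -1.04, -0.81 and -0.42 on the control arrays. Its difference of 0.68 ± 0.20 (SE, n = 6 each; adjusted p = 0.0556) was the nearest outside the threshold, and it passed with each array divided by its SD (adjusted p = 0.0415). cest-32 (C52A10.1, chromosome V) had LiCl values with a lowest of -0.66, a median of -0.54 and a highest of 0.22, against -1.26, -0.84 and -0.70 on the control arrays. The gap between the groups was narrow, and the difference was 0.48 ± 0.18 (SE, n = 6 each; adjusted p = 0.128).

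**Figure D2:**
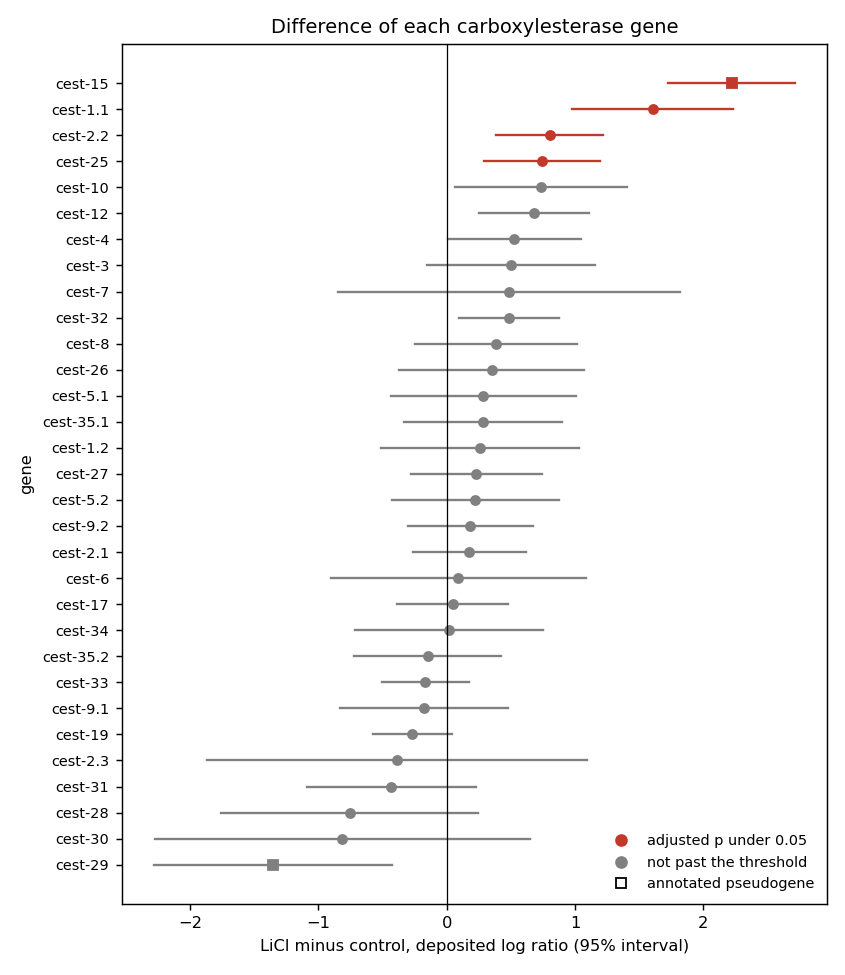
Difference of each of the 31 genes, LiCl minus control in deposited log ratio (horizontal axis), as points with 95% intervals from the limma fit; red marks an adjusted p under 0.05 and squares mark the annotated pseudogenes. The points run from -1.35 in cest-29 to 2.22 in cest-15, and 22 of 31 lie above 0.

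Of the further genes ranked by p, cest-10 and cest-4, both on chromosome IV, had positive differences with overlapping groups. cest-10 (C42D4.2) had a lowest LiCl value of 0.13, a median of 0.91 and a highest of 1.98, against -0.15, 0.17 and 0.63 on the control arrays. Only 3 of 6 LiCl arrays lay above every control array, and the difference was 0.74 ± 0.31 (SE, n = 6 each; adjusted p = 0.175). cest-4 (C17H12.4) had LiCl values with a lowest of -0.69, a median of 0.24 and a highest of 0.70, against -0.57, -0.47 and 0.22 on the control arrays. The difference was 0.53 ± 0.24 (SE, n = 6 each; adjusted p = 0.213), and control replicate 2 alone among the controls lay above 0. On the 8 arrays of higher weight it was 0.075 (adjusted p = 0.903).

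cest-3 (E01G6.3, chromosome X), an ascaroside headgroup enzyme, was below 0 on all arrays of both groups. Its LiCl arrays had a lowest value of -0.92, a median of -0.58 and a highest of -0.081, against -2.20, -0.93 and -0.12 on the control arrays. The LiCl values lay almost wholly within the control range, and the difference was 0.50 ± 0.30 (SE, n = 6 each; adjusted p = 0.359), or 0.27 without control replicate 3, the lowest array. The other headgroup enzymes, named here for their function and not by rank, had differences of 0.38 ± 0.29 for cest-8 (SE; adjusted p = 0.485) and 0.18 ± 0.22 for cest-9.2 (SE; adjusted p = 0.685). Their 95% intervals ran from -0.25 to 1.02 for cest-8 and from -0.30 to 0.67 for cest-9.2. Without LiCl replicate 1 the differences were 0.21 in cest-8 and 0.031 in cest-9.2, and on the 8 arrays of higher weight they were 0.022 and -0.095.

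Negative differences that missed the threshold were found for cest-19, cest-28 and cest-30 as well. cest-19 (R173.3, chromosome X) had LiCl values with a lowest of -0.91, a median of -0.65 and a highest of -0.59, against -0.78, -0.45 and -0.13 on the control arrays. It was the least variable member on the LiCl arrays (SD 0.128), and its difference was -0.27 ± 0.14 (SE, n = 6 each; adjusted p = 0.30). cest-28 (K11G9.3, chromosome V) had LiCl values with a lowest of -1.48, a median of -0.90 and a highest of 0.43, against -1.15, 0.019 and 1.66 on the control arrays, a difference of -0.76 ± 0.46 (SE, n = 6 each; adjusted p = 0.364), or -0.43 without control replicate 6. cest-30 (B0238.7, chromosome V) was the most variable member on the LiCl arrays (SD 1.60), with a lowest value there of -2.68, a median of 0.064 and a highest of 1.69, against -0.24, 0.66 and 2.35 on the control arrays. Its difference of -0.81 ± 0.67 (SE, n = 6 each; adjusted p = 0.526) was 0.091 on the 8 arrays of higher weight, and so changed sign.

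The remaining 18 members had differences between -0.43 and 0.48, of which 13 were above 0 and 5 below, and adjusted p-values between 0.443 and 0.988. The median difference over the 31 members was 0.23, beside 0.019 over all probes. It was 0.15 without LiCl replicate 1 and 0.075 on the 8 arrays of higher weight. In all, 22 members (71.0%) had a difference above 0, beside 51.7% of all probes. In 11 members, none of them called, the sign of the difference changed under at least 1 other setting. For 22 members the 95% interval of the difference included 0. The width of these intervals followed the spread between arrays, with standard errors from 0.144 in cest-19 to 0.684 in cest-2.3. A difference of the size seen in cest-2.2 therefore lay inside the interval of cest-7, which ran from -0.85 to 1.82, and outside that of cest-17, which ran from -0.39 to 0.48.

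Members differed in their level against the mixed-stage reference. All 6 control arrays lay below 0 for 14 members (45.2%), beside 25.2% of all probes, and above 0 for 1 member, cest-15 (3.23%), beside 25.5% of all probes. On the LiCl arrays 8 members were below 0 on every array, beside 22.5% of all probes, and 3 members, cest-15, cest-10 and cest-7, were above 0 on every array, beside 21.9% of all probes. Below 0 on all 12 arrays were cest-3, cest-9.1, cest-17, cest-19, cest-25, cest-33 and cest-35.1. The highest single value of a member other than cest-15 came from cest-7, which ran from 0.65 to 3.56 on the LiCl arrays and from -0.87 to 2.46 on the control arrays, so its groups overlapped. Where 0 lies depends on how the authors centred the arrays, so these counts describe the deposited values only.

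Among the arrays, LiCl replicate 1 was the highest LiCl array in 14 of the 31 members, and in 4 of the 5 members without overlap. The same count over all probes was not made, and this array had the highest 95th percentile of all probes (1.83). It also had the lowest array weight of the 12 in limma's estimate (0.524). Control replicates 3 and 4 were each the lowest control array in 9 members. The median over the 31 members did not separate the groups, running from -0.56 to -0.18 on the LiCl arrays and from -0.75 to -0.18 on the control arrays. Without LiCl replicate 1 the differences were 2.14 in cest-15, 0.69 in cest-2.2 and 0.68 in cest-25, and cest-25 no longer passed (adjusted p = 0.0877).

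Many members lie side by side in the genome. In the gene order of WBcel235, 19 of the 31 members fell into 5 runs with at most 3 other protein-coding genes between neighbours, and 12 stood alone. The files name no genome build, so only order is used. The runs were cest-5.2 and cest-5.1 on chromosome IV, 3 runs on chromosome V, and cest-8, cest-9.2, cest-9.1, cest-7 and cest-3 on chromosome X. The higher genes cest-1.1 and cest-2.2 both belonged to the run cest-1.2, cest-1.1, cest-2.1, cest-2.2 and cest-2.3 on chromosome V, while cest-15 and cest-25 stood alone. In the other 4 runs no member passed the test. Differences ran from 0.22 to 0.29 in the chromosome IV run and from -0.18 to 0.50 in the chromosome X run. They ran from -0.76 to 0.015 in the run of cest-28, cest-31 and cest-34, and from -0.81 to 0.48 in the run of cest-32, cest-35.2, cest-35.1 and cest-30. The annotated spans of cest-8 and cest-9.2 overlap, as do those of cest-9.1 and cest-7, so signal of 1 such gene may count towards its neighbour. Strands and probe positions were not used here, so this was not tested.

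**Figure D3:**
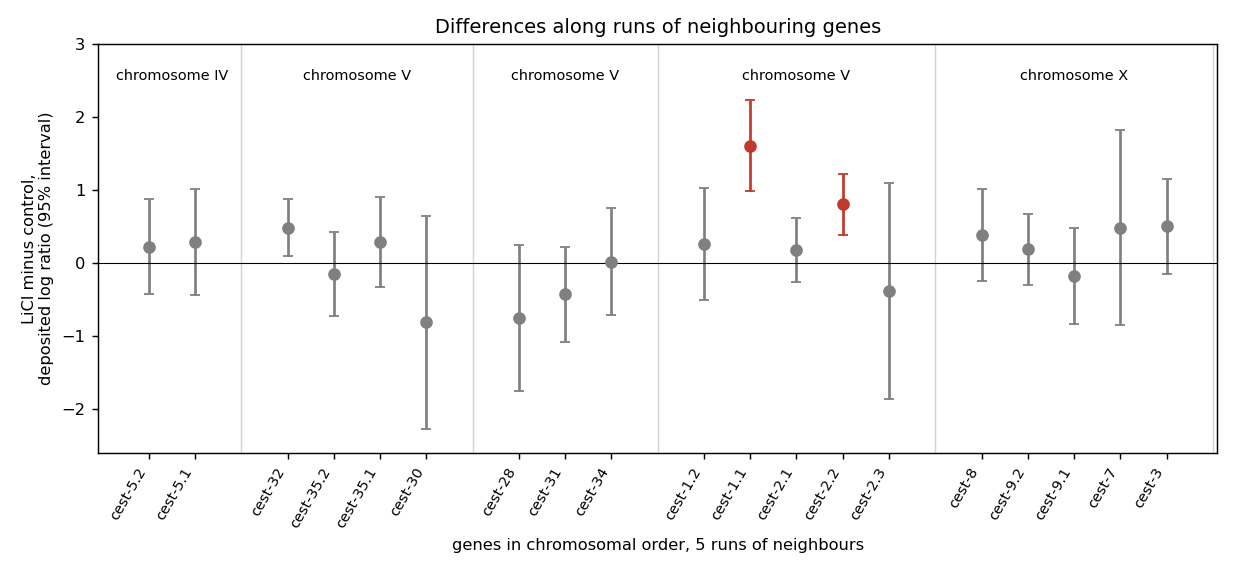
Difference, LiCl minus control in deposited log ratio (vertical axis), of the 19 genes that lie in runs, in chromosomal order within each run, as points with 95% intervals; red marks an adjusted p under 0.05. In the run with cest-1.1, the called genes cest-1.1 (1.61) and cest-2.2 (0.80) alternate with cest-1.2 (0.26), cest-2.1 (0.17) and cest-2.3 (-0.38). This order depends on the probe read for cest-1.2, whose second probe, not shown here, gave 0.86 with an adjusted p under 0.05.

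Within that run of 5 genes, the called genes alternated with genes that did not pass on the probes that stand for them. On its second probe cest-1.2 passed too (0.86, limma adjusted p = 0.0461), so the alternation depends on the probe. The differences between neighbours were compared. This run was picked out of the 5 because its calls had been seen, so the p-values below describe a pattern already noticed and are no independent evidence for it. For each of 10 pairs of genes, and for the 2 probes of cest-1.2, the gap between the probes on each array was compared between LiCl and control arrays by an exact two-sided permutation test over all 924 assignments, with p-values adjusted over the 11 comparisons. Of these, 3 passed. The difference of cest-1.1 exceeded that of cest-2.1 by 1.43 (exact permutation p = 0.00433, adjusted p = 0.0238) and that of cest-2.3 by 1.99 (exact permutation p = 0.0108, adjusted p = 0.0397), with 5 of 6 LiCl arrays beyond every control array in both. The difference of cest-2.1 minus that of cest-2.2 was -0.63 (exact permutation p = 0.00433, adjusted p = 0.0238), again with 5 of 6 LiCl arrays beyond every control array. The gaps of cest-1.2 minus cest-1.1 (-1.35) and of cest-1.1 minus cest-2.2 (0.81) both reached an adjusted p of 0.0571. The count was 5 with each array divided by its SD, 6 without control replicate 2 and 1 without LiCl replicate 2.

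cest-2.1, next to cest-2.2, had a difference of 0.17 ± 0.20 (SE, n = 6 each; 95% interval -0.27 to 0.62), and cest-2.3 one of -0.38 ± 0.68 (SE, n = 6 each; adjusted p = 0.795). Without LiCl replicate 5, at -2.47, the difference of cest-2.3 was 0.096. cest-2.3 was among the most variable members, from -2.47 to 1.86 on the LiCl arrays and from -1.22 to 2.17 on the control arrays. The 95% intervals of both genes included 0, and that of cest-2.3 also included the difference found for cest-2.2.

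For 5 genes a second probe allowed the difference to be read again. On its second probe cest-1.2 (T02B5.3) had LiCl values with a lowest of -0.25, a median of 0.59 and a highest of 1.00, against -0.96, -0.36 and 0.13 on the control arrays. There 5 of 6 LiCl arrays lay above every control array, and the difference was 0.86 ± 0.24 (SE, n = 6 each; adjusted p = 0.0461), higher in LiCl. With 1 array left out it passed in 2 of 12 fits, and its adjusted p reached 0.0979. On the probe that stands for the gene the LiCl arrays had a lowest value of -0.10, a median of 0.15 and a highest of 0.65, against -1.79, 0.28 and 0.58 on the control arrays. That difference was 0.26 ± 0.36 (SE, n = 6 each; adjusted p = 0.723), with control replicate 2 far below the other arrays, and it was -0.088 without that array. The gap between the 2 probes did not pass the test (0.60, exact permutation p = 0.169, adjusted p = 0.265), but did without control replicate 2 (0.93, exact permutation p = 0.013, adjusted p = 0.0286). Had the second probe stood for cest-1.2, 5 members would have been called, so this gene's call depends on the probe. With the mean of both probes cest-1.2 was not called, and the count stayed at 4. The second probe did not pass with array weights (0.71, limma adjusted p = 0.0924) or on the 8 arrays of higher weight (0.66, limma adjusted p = 0.28).

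**Figure D4:**
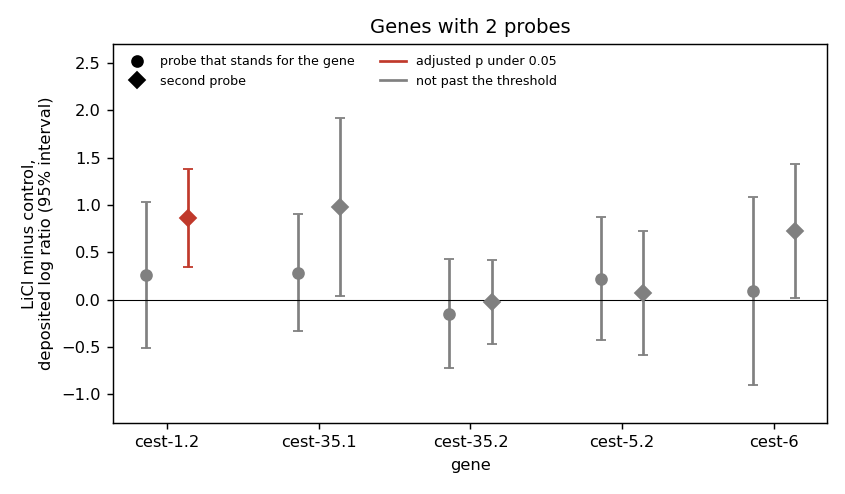
Difference, LiCl minus control in deposited log ratio (vertical axis), on both probes of the 5 genes that have 2, circles for the probe that stands for the gene and diamonds for the second probe, with 95% intervals. Red marks an adjusted p under 0.05, reached only by the second probe of cest-1.2 (0.86).

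The second probes of the other 4 genes did not pass the test. For cest-35.1 the difference was 0.98 ± 0.43 (SE; adjusted p = 0.201) on the second probe and 0.29 ± 0.28 (SE; adjusted p = 0.606) on the first, or 0.0068 without control replicate 1. For cest-6 it was 0.72 ± 0.33 (SE; adjusted p = 0.206) on the second probe and 0.091 ± 0.46 (SE; adjusted p = 0.933) on the first. cest-5.2 had differences of 0.069 and 0.22 on its second and first probe, and cest-35.2 had -0.024 and -0.15. On all 12 arrays both probes of each gene gave differences of 1 sign. With 1 array left out the sign changed on at least 1 probe of cest-1.2, cest-6, cest-35.2 and cest-5.2. Each difference lay within the other's 95% interval for cest-35.2, cest-5.2 and cest-6.

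Little of the surrounding biochemistry could be read, because 10 of 15 lists of related genes and cell type markers had no named probe. Lists without one were other cholinesterase-like genes, lipases and further alpha/beta hydrolases, gut granule genes, cytochrome P450 and flavin monooxygenase genes, xenobiotic efflux transporters and paraoxonase-like genes, and markers of intestine, hypodermis, muscle and neurons. The peroxisomal acyl-CoA oxidases of ascaroside side-chain shortening had 3 measured genes and none passed, with differences of 0.41 for acox-1.6 (adjusted p = 0.0872), 0.45 for acox-3 (adjusted p = 0.215) and -0.021 for acox-1.4 (adjusted p = 0.969). Their median was 0.41. Of the conjugating enzymes 2 glucuronosyltransferase-family genes were measured, and neither ugt-66 (0.96, adjusted p = 0.186) nor ugt-67 (0.57, adjusted p = 0.619) passed, for a median of 0.77.

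Of the markers of other cell types, 1 of 3 pharynx genes was higher, phat-8 (1.01), and 1 lower, pqn-15 (-0.96), with a median of 0.38. None of 3 germline and oocyte genes passed (median -0.39). These 3, of 10 on that list, were memi-1, memi-2 and memi-3, so the list is read from memi genes alone. Of 10 sperm genes spe-51 was higher (2.07) and spe-57 lower (-0.88), with a median of 0.014. Beside these counts stand 4.50% of all probes higher and 3.50% lower. The fit of spe-57 rests on 5 of the 6 control arrays, which had a value. The mean log ratio of the pharynx list ran from -2.59 to -1.74 on the LiCl arrays and from -2.70 to -1.55 on the control arrays. That of the germline list ran from 0.81 to 1.47 on the LiCl arrays and from 1.23 to 1.93 on the control arrays, and that of the sperm list from 0.11 to 1.26 on the LiCl arrays and from 0.085 to 1.09 on the control arrays. The ranges overlapped for all 3 lists. No intestine marker had a named probe, and the part of any tissue's share in the carboxylesterase differences was not tested.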

How the data were processed

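The authors deposited log ratios per probe and array, read here as log2. Base and scale are not stated, so log2 is an assumption, and no difference is read as a fold. No normalization, filter or array software is named by the labels. The nearly equal interquartile ranges leave the unit of the deposited values unknown. The platform annotation named 8757 of 22370 probes, and symbols were brought to WBcel235 by gene identifier. LiCl minus control was fitted over all probes by lmFit and two-sided eBayes (R 4.3.3, limma 3.58.1), without covariates. P-values were adjusted over all probes by Benjamini-Hochberg, with a threshold of 0.05. Members and lists were chosen with earlier results of these data known. Values by array are given for called members, then for members by smallest p until 12 are named, and for the 2 most negative differences. Runs of neighbours, and the tests between them, were chosen after seeing the data. The fit was tested on simulated data, and the permutation test only on short made-up sets of values with a known answer. Precision is limited by the number of arrays. Settings varied were the scaling, the probe filter, the eBayes model, array weights, a replicate block, averaging of probes, the threshold and the arrays included. Python 3.11.15 and matplotlib 3.10.9 drew the plots.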

Additional observations from a re-analysis of the deposited data

Results flagged for a closer look

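In 8 of 62 groups of 6 arrays (31 members, LiCl and control), 1 array stood apart from the other 5 by Dixon's test, that is, its gap to the nearest array exceeded 0.625 of the group's range. Chance flags about 1 in 20 such groups of normal, independent values, or 3.1. Over all probes the share was 7.98% of groups, against 12.9% in the members. On the LiCl arrays, replicate 6 was low in cest-15 (2.90, the next array being at 3.66) and high in cest-26 (0.99, next -0.67). On the control arrays, replicate 5 was high in cest-30 (2.35, next 0.70) and low in cest-7 (-0.87, next 1.50). Control replicate 2 was low in cest-1.2 (-1.79, next -0.063) and high in cest-4 (0.22, next -0.39). Control replicate 3 was low in cest-29 (-0.71, next 0.016), and control replicate 1 was low in cest-35.1 (-2.30, next -0.84). Of these genes only cest-15 passed the group test, and it did so without LiCl replicate 6 too (2.38, adjusted p = 0.000137).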

How the results depend on the processing

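A set of 8 arrays, lacking the 4 of lowest weight (LiCl replicates 1, 2 and 6, control replicate 5), was chosen after seeing the data. Against 4 cest genes higher and 0 lower on all arrays, there were 2 higher on the 8 arrays, and 2 with the lower part of probes by SD left out, which kept 18 of the 31 members. Both times these were cest-15 and cest-1.1. Leaving out 1 array gave 2 to 4 higher and 0 lower, and an adjusted p under 0.10 gave 1 lower, cest-29. Members without overlap numbered 8 on the 8 arrays, where 16.1% of all probes did not overlap, and 5 to 6 with 1 array left out, where 7.30% to 8.04% did not. The median difference was 0.075 on the 8 arrays and 0.15 to 0.30 with 1 array left out. Neighbour comparisons past the threshold numbered 5 after division by the SD and 1 to 6 with 1 array left out. Changed, higher and lower probes numbered 1789, 1006 and 783. They were 622, 432 and 190 with the filter on SD, 838, 521 and 317 on the 8 arrays and 2836, 1554 and 1282 at an adjusted p under 0.10. With 1 array left out they ran from 1181 to 1600, 697 to 976 and 479 to 681.

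Differences changed sign in 11 members and on 2 second probes, none of them called. On the 8 arrays they were 0.091 for cest-30, -0.58 for cest-6, -0.090 for cest-26, -0.067 for cest-7 and -0.095 for cest-9.2. With array weights cest-6 was -0.17, with quantile normalization cest-34 was -0.014, and after division by the SD the second probe of cest-35.2 was 0.010. With 1 array left out, cest-1.2 ran from -0.088 to 0.39, cest-2.3 from -0.77 to 0.096, cest-6 from -0.21 to 0.42, cest-9.1 from -0.34 to 0.0030, cest-17 from -0.055 to 0.17, cest-34 from -0.18 to 0.26 and cest-35.2 from -0.28 to 0.014. The second probes of cest-35.2 and cest-5.2 ran from -0.10 to 0.054 and from -0.11 to 0.25. The cause was not tested. Equal replicate numbers were not read as pairing. Only 1 of 6 same-numbered pairs had deviations that correlated above 0.1. Deviations of arrays with unlike numbers were not correlated for comparison, so this cannot decide whether the replicates were paired. With the replicate block 3 cest genes were higher, as cest-2.2 (adjusted p = 0.0576) no longer passed. Spot intensities were not used, so signal over background is unknown.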

Other observations

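Genes that neighbour the runs of carboxylesterase genes were read as well. Of 24 named and measured genes that lie between members of a run or within 5 protein-coding genes of its ends, 2 were higher in LiCl, F57G12.1 and Y49G5B.1, and 1 was lower, metl-13, beside 5.34% of all named genes higher and 2.99% lower. F57G12.1, near the chromosome X run, had a difference of 1.24 ± 0.20 (SE, n = 6 each; adjusted p = 0.00242), with every LiCl array above every control array. Y49G5B.1, near the run with cest-32, differed by 0.70 ± 0.18 (SE, n = 6 each; adjusted p = 0.0323), and metl-13, near the chromosome IV run, by -0.69 ± 0.16 (SE, n = 6 each; adjusted p = 0.0174). Neighbours without a named probe were not read, among them the 2 other protein-coding genes inside the run with cest-1.1 and cest-2.2. Beside that run, the 2 measured genes were ints-2 (-0.38, adjusted p = 0.085) and ZC376.8 (-0.55, adjusted p = 0.321), neither of which passed. The neighbouring genes were chosen after their values were seen.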
